A study of Mus musculus with 6 samples.

Results

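Bone morphogenetic protein (BMP) signalling was described in hearts of E12.5 mouse embryos, at midgestation, through 10 genes: the ligands Bmp10, Bmp2, Bmp4 and Bmp7, the receptors Bmpr1a and Bmpr2, the inhibitory SMADs Smad6 and Smad7, and the target genes Id1 and Id3. The genes were chosen by symbol, and all 10 were found among the 30619 rows of the count table and passed the filter on low counts. Poly(A) RNA of mixed embryonic cardiac cells was sequenced in 3 libraries from control hearts, whose genotype is labelled WT, and 3 from hearts whose titles read CKO, a conditional knockout, and whose genotype label reads TRIM28 knockdown. TRIM28 is a co-repressor that zinc finger proteins bring to DNA, and the series asks what it does in trabeculation and compaction, the steps that shape the ventricular wall. Not given in the sources used here are the Cre driver, the deleted exons, the strain, whether controls carry a floxed allele or Cre, and how many hearts went into a library. No label says whether each library came from its own animals. The p-values of the gene tests rest on how far libraries of a group lay apart, in the gene itself and in other genes.

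BMP ligands are secreted dimers that bind a complex of type I receptors, such as the product of Bmpr1a, and type II receptors, such as the product of Bmpr2. The active type I receptor phosphorylates SMAD1, SMAD5 and SMAD9, which enter the nucleus with SMAD4 and switch on targets such as the Id genes, and also Smad6 and Smad7, whose products feed back on the receptors. In the developing heart, Bmp10 is made by trabecular and atrial muscle and is needed for the growth of the ventricular wall, Bmp2 of the atrioventricular canal drives cushion formation, and Bmp4 is known from the outflow tract.

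The libraries held 34400841 to 39763233 counts, and values below are CPM, counts scaled to a common library size, unless another scale is named. Trim28 itself had 305, 391 and 443 CPM in controls, given here and below in the order of replicates 1, 2 and 3, and 172, 314 and 165 CPM in hearts labelled CKO, so the library labelled CKO 2 lay inside the control range and every direction given here rests on the labels (log2 fold change -0.81, SE 0.34, adjusted p = 0.34 in edgeR's quasi-likelihood test). Trim28 kept its negative sign under all 16 alternative fits tried and was called lower in 2 of them. These were limma-voom (-0.86, adjusted p = 0.0165) and edgeR without its robust option (-0.81, adjusted p = 0.0194). Counts over the whole gene include exons that a deletion may leave in place. A ribosomal RNA row took 0.126% to 0.522% of the counts in controls and 0.563% to 0.79% in CKO, so that this share and the group cannot be told apart. The markers of heart muscle were high in every library, with 6 genes (Tnnt2, Actc1, Myh6, Myh7, Tnni1 and Ttn) summing to 26292 to 27853 CPM in controls and 27944 to 28872 CPM in CKO. Of these 6, Myh6 was called higher (log2 fold change 0.33, edgeR adjusted p = 0.0103), and Myh7 (-0.23, edgeR adjusted p = 0.14) was called lower with DESeq2 alone. The Y-linked gene Ddx3y had 28.9, 0 and 42.8 CPM in controls and 38.1, 75.5 and 66.3 CPM in CKO. Xist, the RNA of the inactive X, had 618, 943 and 469 CPM in controls and 420, 0.20 and 0.10 CPM in CKO. The make-up by sex of the embryos thus differed between libraries of both groups. Xist was lower in every CKO library than in any control, so the make-up also differed between the groups. Its part in the results was not tested beyond a fit with a Y-linked covariate. In bulk RNA, fewer cells of a type and less RNA per cell cannot be told apart.

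Promoter windows from 250 bases before to 50 bases after a RefSeq transcript start were taken from the RefSeq table (build GRCm38.p6) for 6 of the 10 genes. Windows of Bmp2, Bmp7, Smad7 and Id1 were not used here, so matches in these genes were not searched. Windows of 3 genes are shown, an inhibitor, the most variable ligand and a target. None of these 3 genes was called, and the inhibitor that was called, Smad7, has no window here. Capitals mark GTCT on either strand (written AGAC on the other), the core of the sequence that SMAD proteins bind. The RefSeq transcript starts right after the first 250 bases of each line, and the windows lie at chr9:64022010-64022309 (minus strand) for Smad6, chr6:87428744-87429043 (plus strand) for Bmp10 and chr4:136143572-136143871 (plus strand) for Id3. In GENCODE, the source of the gene positions given below, Id3 begins at 136143497, ahead of its window. The window of Id3, and those of Bmpr1a and Bmpr2, thus lie inside the genes as annotated there, and their matches are placed only by the RefSeq start.
Smad6: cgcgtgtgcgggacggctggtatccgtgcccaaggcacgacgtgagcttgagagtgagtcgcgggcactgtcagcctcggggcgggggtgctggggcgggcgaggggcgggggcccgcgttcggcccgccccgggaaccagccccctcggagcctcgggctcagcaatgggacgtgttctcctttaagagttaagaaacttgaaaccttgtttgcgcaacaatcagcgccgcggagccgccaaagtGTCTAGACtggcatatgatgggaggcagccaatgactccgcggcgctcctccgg
Bmp10: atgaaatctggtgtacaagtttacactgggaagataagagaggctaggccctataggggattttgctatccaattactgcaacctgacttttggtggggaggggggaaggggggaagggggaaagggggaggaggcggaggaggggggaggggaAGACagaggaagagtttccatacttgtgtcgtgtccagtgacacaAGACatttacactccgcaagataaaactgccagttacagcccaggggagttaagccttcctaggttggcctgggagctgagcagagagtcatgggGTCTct
Id3: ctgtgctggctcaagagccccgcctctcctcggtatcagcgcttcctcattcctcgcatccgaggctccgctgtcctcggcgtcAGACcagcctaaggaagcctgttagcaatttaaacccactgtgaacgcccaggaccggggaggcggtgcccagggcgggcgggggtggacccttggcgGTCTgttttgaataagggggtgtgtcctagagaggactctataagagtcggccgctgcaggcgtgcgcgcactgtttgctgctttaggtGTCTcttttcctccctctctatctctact
In Smad6 the 2 matches abut and form the palindrome GTCTAGAC, which runs from 4 bases before the start to the fourth base of the transcript. This palindrome was present in 70 of 32851 windows of the same length (0.213%) and in none of the other 5 windows of these genes. Bmp10 and Id3 each held 3 single matches. A GTCT on either strand, which the palindrome contains, was present in 88.0% of all windows. The letters GGCGCC, a GC-rich palindrome bound by SMAD1 and SMAD5, were present once each in the windows of Bmpr1a and Bmpr2, in none of those of Smad6, Bmp10, Bmp4 and Id3, and in 11.9% of all windows. These matches describe the letters and not sites in use.

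Of the 10 genes, 1 was higher in CKO hearts and none was lower. This was Smad7, which encodes an inhibitory SMAD that blocks type I receptors of both the BMP and the TGF-beta branch. The other 9 genes, all 4 ligands and both receptors among them, did not pass the test. Without the library labelled CKO 2, Bmp7 was called as well, so that 2 of the 10 passed, beside 8.53% of all genes tested in that fit. One call among 10 stands beside 4.1% of all 17557 tested genes called in either direction, 3.03% called higher and 1.07% called lower, and a single gene above that background says nothing of the set. The log2 fold changes (CKO over control) of the 10 genes ran from -0.23 to 0.37 with a median of -0.01, against a median of 0.00 over all tested genes, and 4 were positive and 6 negative. At an unadjusted p under 0.05, 3 of the 10 genes passed, as did 17.8% of all tested genes. The values of the groups did not overlap in 3 of the 10, namely Smad6, Smad7 and Bmpr1a, each higher in CKO. Groups parted in either direction in 22.1% of all tested genes, with CKO above in 11.5% and below in 10.6%.

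**Figure D1:**
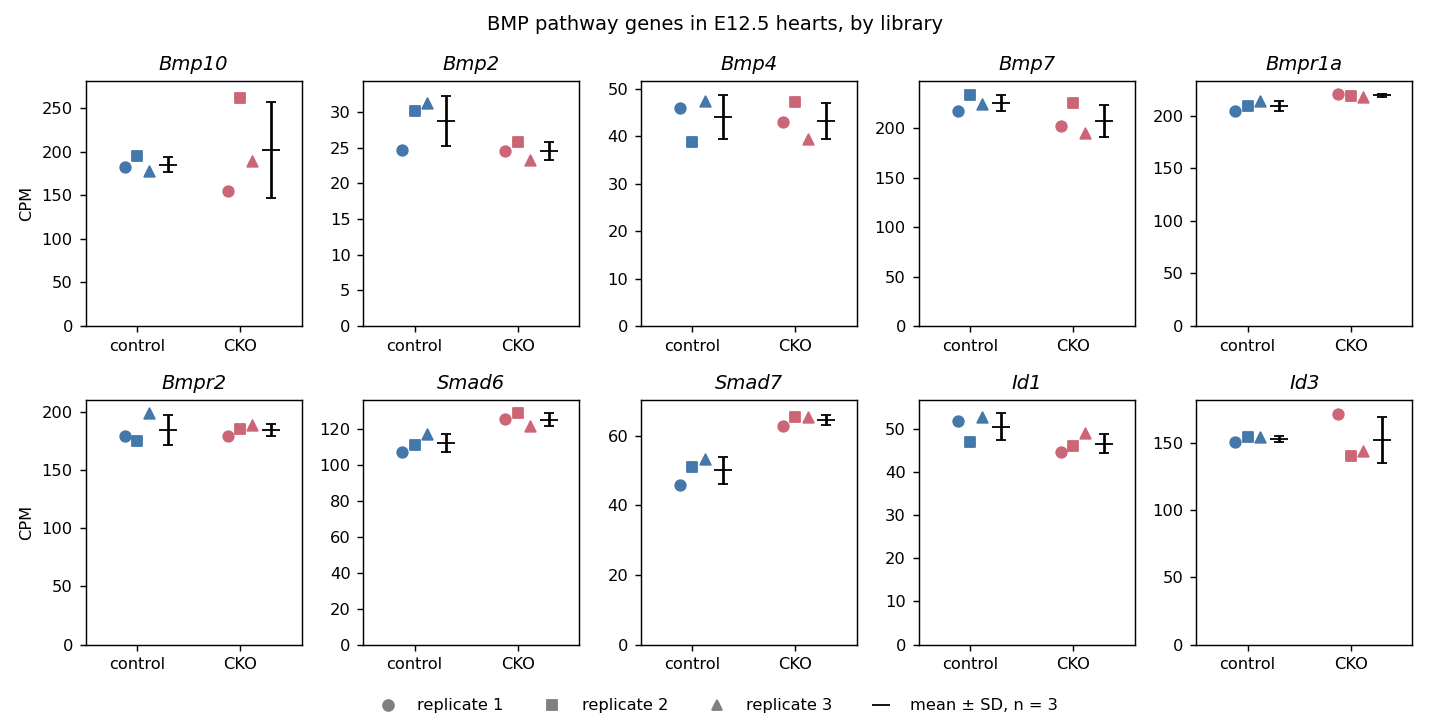
CPM (vertical axes, from 0) of the 10 genes in each of 3 control and 3 CKO libraries, with the mean ± SD beside the points. The CKO points of Smad7 lie between 62.7 and 65.4 CPM, above all control points (45.7 to 53.4 CPM), while those of Bmp10 spread from 155 to 262 CPM around the controls.

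Smad7 (ENSMUSG00000025880.11, mm10, chromosome 18, 75367529 to 75395935, plus strand) had 45.7, 50.8 and 53.4 CPM in controls and 62.7, 65.3 and 65.4 CPM in CKO. Every CKO library exceeded every control, and the lowest CKO value stood 17.5% above the highest control. Averaged over replicates, Smad7 stood at 49.99 ± 3.89 CPM without and 64.5 ± 1.496 CPM with the CKO label (SD, n = 3), a ratio of 1.29. The log2 fold change was 0.37 (SE 0.07, 95% interval 0.22 to 0.51, edgeR quasi-likelihood adjusted p = 0.0035). Smad7 was called under each of the 16 alternatives tried, 6 of which left out 1 library each, with log2 fold changes from 0.30 to 0.53 and an adjusted p of at most 0.0469, reached without control replicate 1.

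Smad6 (ENSMUSG00000036867.7, chromosome 9, 63953076 to 64022059, minus strand), whose product is the inhibitory SMAD that acts mainly on the BMP branch, had 107, 111 and 117 CPM in controls and 125.2, 128 and 121 CPM in CKO. Its groups also did not overlap, and the lowest CKO value stood 3.47% above the highest control. The log2 fold change of 0.16 (SE 0.06, 95% interval 0.04 to 0.28) did not pass the adjusted test (edgeR adjusted p = 0.12). It was called under none of the 16 alternatives, with an adjusted p from 0.0949 in DESeq2 to 0.428 with the ribosomal RNA share as a covariate.

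The share of Smad7 relative to Smad6 differed between the groups without overlap. On RPKM, which is CPM per kilobase of exon, the ratio of Smad7 to Smad6 was 0.303, 0.324 and 0.323 in controls and 0.355, 0.36 and 0.383 in CKO. The sum of Smad6 and Smad7 over the sum of the receptor-activated SMADs Smad1, Smad5 and Smad9 was 1.57, 1.67 and 1.69 in controls and 1.89, 1.88 and 1.80 in CKO. Each of these ratios gave p = 0.10 in a two-sided exact permutation test over samples, the smallest value that 3 against 3 allows, and 0.20 adjusted over the 4 ratios computed. The ratios were chosen after the values of the genes were seen, so they describe these libraries.

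**Figure D2:**
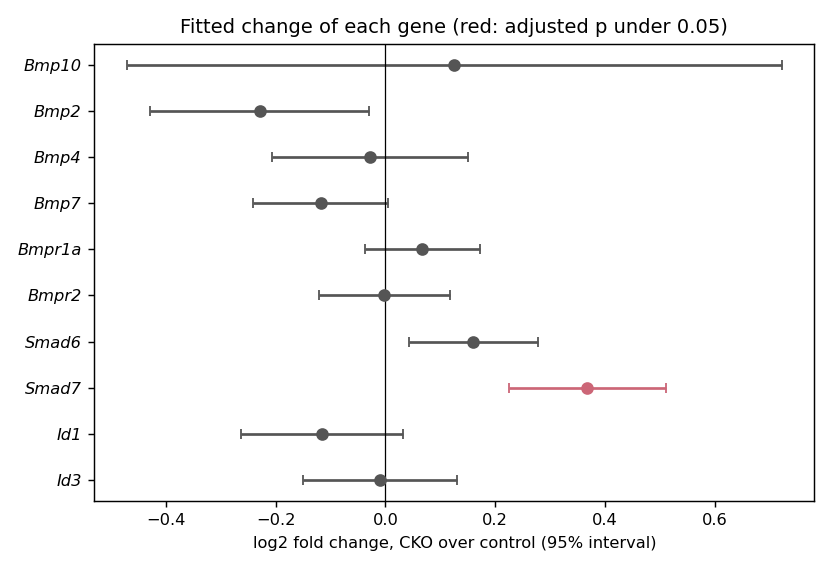
Fitted log2 fold change of CKO over control for each of the 10 genes (points) with its 95% interval (bars) from the edgeR fit. The interval of Smad7 (0.22 to 0.51, red) lies above 0 and is the only one whose gene was called, and that of Bmp10 (-0.47 to 0.72) is the widest.

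None of the 4 ligands passed the test in edgeR, DESeq2 or limma-voom, and Bmp10 was the most variable of them within the CKO group. Bmp10 (ENSMUSG00000030046.6, chromosome 6, 87428994 to 87437677, plus strand), the chamber muscle ligand, had 182, 195 and 178 CPM in controls and 155, 262 and 189 CPM in CKO. One CKO library lay below the controls, 1 above and 1 inside their range, and the SD was 54.7 CPM in CKO against 8.57 CPM in controls. The log2 fold change was 0.13 (SE 0.22, 95% interval -0.47 to 0.72, edgeR adjusted p = 0.85). The high value belongs to the library labelled CKO 2, the one whose Trim28 level lay among the controls. Without it the log2 fold change was -0.11 (edgeR adjusted p = 0.44), so the sign of Bmp10 rests on that library, and the interval does not tell a fall from a rise of this size.

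The range of Bmp10 over the 6 libraries, 0.76 on the log2 CPM scale, was the widest of the 10 genes. Among 10317 other named genes whose log2 CPM averaged at least 3, those whose centred log2 CPM lay nearest to it over the 6 libraries were Slc25a27 (root mean square difference 0.06), a mitochondrial carrier gene, Hap1 (0.08), the gene of a huntingtin-associated protein, and Tenm2 (0.08), a teneurin adhesion gene. Each of the 3 was also highest in the library labelled CKO 2 and lowest in CKO replicate 1, with 12.3 and 7.48 CPM for Slc25a27. They were picked for this likeness, which therefore has no test.

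Bmp7 (ENSMUSG00000008999.7, chromosome 2, 172868012 to 172940321, minus strand), a broadly expressed ligand, had 218, 234 and 224 CPM in controls and 202, 226 and 195 CPM in CKO. Of the CKO libraries, 1 lay inside the control range and the other 2 lay below it. The log2 fold change was -0.12 (SE 0.06, 95% interval -0.24 to 0.01, edgeR adjusted p = 0.31). Without the library labelled CKO 2 it was -0.18 and passed the test (edgeR adjusted p = 0.0348), and it was not called under the other 15 alternatives.

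Bmp2 (ENSMUSG00000027358.6, chromosome 2, 133552159 to 133562885, plus strand), the ligand of the atrioventricular canal, had 24.7, 30.2 and 31.3 CPM in controls and 24.5, 25.8 and 23.2 CPM in CKO. Control replicate 1 was lower than the other controls and lay among the CKO values. The log2 fold change of -0.23 (SE 0.10, 95% interval -0.43 to -0.03) passed at an unadjusted p under 0.05, as did Smad6 and Smad7, and not after adjustment (edgeR adjusted p = 0.20). With the ribosomal RNA share as a covariate the log2 fold change was 0.00. The 3 canal markers Tbx2, Tbx3 and Rspo3 were not called and summed to 57.9 to 76.0 CPM in controls and 59.8 to 74.7 CPM in CKO.

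Bmp4 (ENSMUSG00000021835.15, chromosome 14, 46383520 to 46390669, minus strand) had 46.0, 38.7 and 47.4 CPM in controls and 43.0, 47.2 and 39.5 CPM in CKO. Every CKO value lay inside the control range, and the log2 fold change was -0.03 (SE 0.09, 95% interval -0.21 to 0.15, edgeR adjusted p = 0.91). Bmp4 shares 89 exon bases with Gm15217 on the opposite strand, so some of its reads cannot be assigned without strand.

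Among the 4 ligands, Bmp7 and Bmp10 made up most of the summed RPKM. Bmp7 took 44.9% ± 0.755 in controls and 42.3% ± 3.004 in CKO, and Bmp10 took 33.0% ± 1.21 and 36.2% ± 4.87 (SD, n = 3). Bmp4 followed at 15.7% ± 1.88 and 15.8% ± 1.35 and Bmp2 at 6.46% ± 0.684 and 5.67% ± 0.564. The ratio of Bmp10 to Bmp7 was 0.748, 0.745 and 0.712 in controls and 0.687, 1.04 and 0.866 in CKO, so the CKO libraries lay on both sides of the controls (two-sided exact permutation p = 0.40, 0.50 adjusted over the 4 ratios).

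The receptor genes Bmpr1a and Bmpr2 had the smallest ranges of log2 CPM over the 6 libraries among the 10 genes, 0.11 and 0.19. Bmpr1a (ENSMUSG00000021796.15, chromosome 14, 34410734 to 34503341, minus strand), the type I receptor gene that heart muscle requires, had 205, 210 and 214 CPM in controls and 221, 219 and 218 CPM in CKO. All CKO values lay above the controls, but the step was small: the log2 fold change was 0.07 (SE 0.05, 95% interval -0.04 to 0.17) and was not called (edgeR adjusted p = 0.53). Bmpr1a shares 290 exon bases with Gm17110 on the opposite strand. Bmpr2 (ENSMUSG00000067336.6, chromosome 1, 59763400 to 59879014, plus strand), the type II receptor gene, had 180, 175 and 199 CPM in controls and 179, 185 and 189 CPM in CKO. Its CKO values all fell inside the control range, with a log2 fold change of 0.00 (SE 0.06, 95% interval -0.12 to 0.12, edgeR adjusted p = 0.99).

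Neither target gene passed the test. Id1 (ENSMUSG00000042745.9, chromosome 2, 152736251 to 152737410, plus strand) and Id3 (ENSMUSG00000007872.3, chromosome 4, 136143497 to 136145755, plus strand) encode inhibitors of basic helix-loop-helix transcription factors and are direct readouts of BMP receptor activity in many cells. Id1 had 51.9, 46.9 and 52.6 CPM in controls and 44.7, 46.0 and 49.0 CPM in CKO. The groups overlapped, and the log2 fold change was -0.12 (SE 0.07, 95% interval -0.26 to 0.03, edgeR adjusted p = 0.42). Id3 had 150, 154 and 154 CPM in controls and 171, 140 and 144 CPM in CKO. The controls were close together, while CKO replicate 1 lay above them and the other 2 CKO libraries below. The log2 fold change of Id3 was -0.01 (SE 0.07, 95% interval -0.15 to 0.13, edgeR adjusted p = 0.97). In CKO replicate 1 the ratio of Id1 to Id3 in RPKM was 0.403, against 0.47 to 0.534 in the other 5 libraries (two-sided exact permutation p = 0.50 between the groups, 0.50 adjusted over the 4 ratios).

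Levels of different genes were compared per length, as RPKM over all annotated exons of a gene, which understates a gene whose long exons are little used. Id3 was highest in controls at 85.3 ± 1.30, followed by Bmp7 at 56.0 ± 2.03, Id1 at 43.5 ± 2.69 and Bmp10 at 41.2 ± 1.91 RPKM (SD, n = 3). Smad6 at 34.9 ± 1.58 and Bmpr1a at 33.0 ± 0.723 RPKM came next, then Bmp4 at 19.6 ± 2.07, Smad7 at 11.1 ± 0.861, Bmpr2 at 10.3 ± 0.712 and Bmp2 at 8.08 ± 0.987 RPKM. In controls the ranges of 3 neighbouring pairs overlapped, namely Id1 with Bmp10, Smad6 with Bmpr1a and Smad7 with Bmpr2, and the other neighbours were apart. In CKO, Smad6 and Bmpr1a no longer overlapped (37.8 to 40.1 against 34.4 to 34.8 RPKM), nor did Smad7 and Bmpr2 (13.9 to 14.5 against 9.97 to 10.5 RPKM). The CKO range of Bmp10 (34.5 to 58.3 RPKM) spread over those of Bmp7 (48.5 to 56.2 RPKM), Id1 and Smad6, and met that of Bmpr1a. These are orders of levels within libraries and were not tested between groups.

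**Figure D3:**
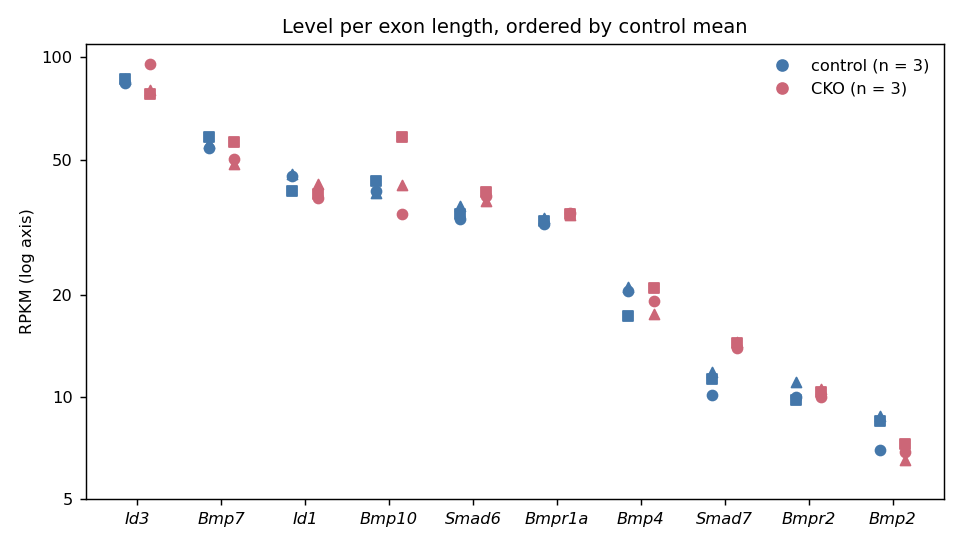
RPKM (log axis) of the 10 genes in each library, ordered by the control mean, with circles, squares and triangles for replicates 1, 2 and 3. Levels fall from 85.3 RPKM for Id3 to 8.08 RPKM for Bmp2 in controls, and the CKO points of Smad7 stand above its control points.

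A wider list of 68 BMP pathway genes, the 10 genes included, was sorted by role, and 67 were in the table and 62 were tested. Of these, 3 were higher and none lower, namely Smad7, Smad9 and Sost, which is 4.84% of the list beside 4.1% of all tested genes. The median log2 fold change was 0.03, with 33 positive and 29 negative. At an unadjusted p under 0.05, 19 of the 62 passed. This is a larger share than the 17.8% of all tested genes, a difference that was not tested. Without the library labelled CKO 2, 10 of the list were called, beside 8.53% of all genes tested in that fit. One was called without control replicate 1 (1.78% of all genes), with the ribosomal RNA covariate (0.319%) or with the Y-linked covariate (1.89%). CKO lay above all controls in 11 of the 62 and below them in 6, beside 11.5% and 10.6% of all tested genes.

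Among the BMP-activated SMADs and their partner, 1 of 4 was higher, beside 3.03% of all tested genes. Smad9, whose RPKM was the lowest of the receptor-activated SMADs in controls (2.84 ± 0.174, against 5.08 ± 0.212 for Smad1 and 19.99 ± 0.293 for Smad5, SD, n = 3), had 14.4, 15.1 and 16.2 CPM in controls and 23.6, 21.5 and 19.4 CPM in CKO. All CKO libraries lay above the controls, and the log2 fold change was 0.50 (SE 0.10, edgeR adjusted p = 0.0083). It was called in 13 of 16 alternatives, and not without control replicate 1 (edgeR adjusted p = 0.0633), with the Y-linked covariate (0.0578) or with the ribosomal RNA covariate (0.269). Smad1 (0.11), Smad5 (-0.06) and Smad4 (0.13) were not called. At an unadjusted p under 0.05, 2 of the 4 passed in edgeR, Smad9 and Smad4, beside 17.8% of all tested genes.

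Of 7 intracellular inhibitors, Smad7 alone was called, beside 4.1% of all tested genes called in either direction. Beside it and Smad6, the ubiquitin ligase gene Smurf1 (0.13), the co-repressor gene Skil (0.14) and the pseudoreceptor gene Bambi (-0.14, edgeR adjusted p = 0.21) had log2 fold changes on both sides of 0. An unadjusted p under 0.05 was reached in edgeR by 4 of the 7 (Smad6, Smad7, Skil and Bambi), beside 17.8% of all tested genes. Of 18 tested secreted modulators, 1 was higher, beside 3.03% of all tested genes. This was Sost, which encodes sclerostin, known mainly as a Wnt antagonist, at 7.202, 8.93 and 9.48 CPM in controls and 12.2, 16.3 and 10.5 CPM in CKO (log2 fold change 0.60, SE 0.16, edgeR adjusted p = 0.0409). Its groups did not overlap, but it was called in 7 of 16 alternatives, and not in limma-voom (adjusted p = 0.0733), nor in edgeR without scaling factors (0.0545), with the Y-linked covariate (0.158) or with the ribosomal RNA covariate (0.292). When libraries were left out in turn it was called only without CKO replicate 3, with an adjusted p of up to 0.178 (without control replicate 1). Among the 18 modulators, 8 had an unadjusted p under 0.05 in edgeR, beside the same 17.8%. Whether these shares differ from that of all genes was not tested.

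None of the 11 tested ligands and none of the 12 receptors and co-receptors was called in edgeR. At an unadjusted p under 0.05, 2 and 1 passed, beside 17.8% of all tested genes. The ligand outside the 10 genes with the smallest adjusted p was Bmp15 (log2 fold change -1.02, edgeR adjusted p = 0.16), which lay near 1 CPM, and the co-receptor was Rgma (-0.31, edgeR adjusted p = 0.24). Of 10 target genes, which include Id1 and Id3, none was called in edgeR. An unadjusted p under 0.05 was reached by 2 of them, near the 17.8% of all tested genes. The nearest was Atoh8, a helix-loop-helix gene that responds to BMP in several cell types, with a log2 fold change of 0.28 (edgeR adjusted p = 0.17), and Id2 (0.03) and Id4 (0.08) were close to 0. None of these target genes was called in DESeq2 or limma-voom, nor were ligands or receptors.

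**Figure D4:**
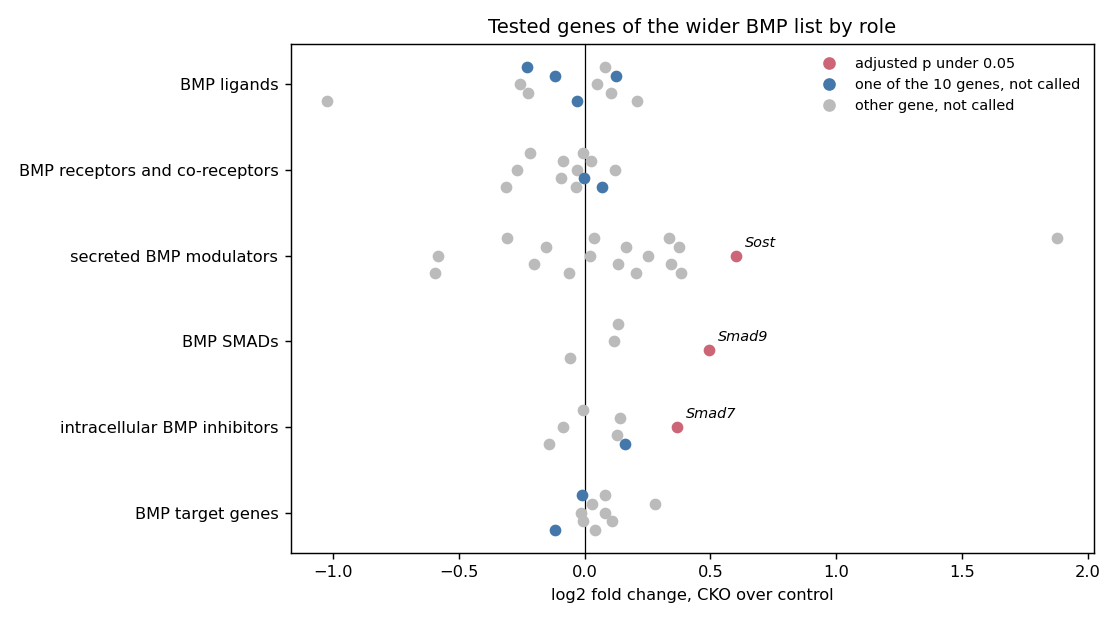
Log2 fold change of CKO over control (horizontal axis) of the 62 tested genes of the wider list, in 6 rows by role. The height within a row has no meaning. The 3 called genes (red) are Smad7, Smad9 and Sost, all to the right of 0.

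Smad7 also serves the TGF-beta branch. A list of 11 genes of the TGF-beta and activin branch had a median log2 fold change of 0.01, with 6 positive and 5 negative. The ligand gene Tgfb3 of that branch had 39.6, 36.8 and 37.4 CPM in controls and 56.1, 53.6 and 48.7 CPM in CKO. All CKO libraries lay above the controls, and the log2 fold change was 0.48 (SE 0.07, edgeR adjusted p = 0.00069). Tgfb3 was called whichever library was left out and lost its call with the ribosomal RNA share as a covariate (edgeR adjusted p = 0.283). The receptor gene Tgfbr2 was at -0.20 (edgeR adjusted p = 0.099), with all CKO libraries below the controls.

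Of the 5 genes tied to Bmp10 in chamber muscle by earlier work (Tbx20, Nkx2-5, Mef2c, Myocd and Cdkn1c), none was called in edgeR, DESeq2 or limma-voom and 3 passed an unadjusted p under 0.05, beside 17.8% of all tested genes. The log2 fold changes of these 3 had both signs, 0.11 for Tbx20, -0.20 for Myocd and -0.18 for Cdkn1c. Cdkn1c, a cell cycle inhibitor gene that rises when Bmp10 is lost, had the smallest adjusted p (log2 fold change -0.18, SE 0.06, edgeR adjusted p = 0.14), and without the library labelled CKO 2 it was called lower (-0.27, edgeR adjusted p = 0.0021), as it was with no filter on low counts (-0.19, edgeR adjusted p = 0.0116).

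Markers of several cell types moved beside these genes, and their part in the results was not tested. Among all tested genes, 3.03% were called higher and 1.07% lower, and 17.8% had an unadjusted p under 0.05. Of 8 endothelial and endocardial markers, 3 were lower (Cdh5, Kdr and Tek) and none higher, and the 8 summed to 1471 to 1556 CPM in controls and 1231 to 1441 CPM in CKO. With DESeq2, Tie1 was called lower as well. Of 4 smooth muscle markers, 3 were higher (Myh11, Cnn1 and Acta2). All 4 summed to 1509 to 1533 CPM in controls and 2142 to 2602 CPM in CKO. Of 6 atrial markers, 4 were higher (Sln, Myl7, Myl4 and Kcna5). All 6 summed to 2600 to 2796 CPM in controls and 3125 to 3697 CPM in CKO. Of 7 trabecular markers, 2 were higher (Nppa and Nppb). All 7 summed to 1146 to 1389 CPM in controls and 1378 to 1725 CPM in CKO. The 7 did not move together, with 4 positive and 3 negative log2 fold changes and a median of 0.003. Nppa was at 0.38 and Nppb at 1.36, while Gja5 (-0.43), Etv1 (-0.21) and Sema3a (-0.15) were negative and not called. Of 6 cushion markers, 1 was lower (Postn). All 6 summed to 676 to 823 CPM in controls and 592 to 643 CPM in CKO. None of the 5 epicardial, 3 tested nerve and neural crest, 4 macrophage and 5 red cell markers was called in edgeR, DESeq2 or limma-voom, with 1, 1, 1 and 0 at an unadjusted p under 0.05. The red cell markers summed to 927 to 1591 CPM in controls and 832 to 974 CPM in CKO, the epicardial markers to 326 to 348 and 304 to 347 CPM, the macrophage markers to 52.8 to 58.8 and 57.6 to 68.9 CPM, and the 4 nerve and neural crest markers to 7.45 to 8.51 and 9.05 to 10.8 CPM. Each marker had at least 1 count in every library.

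**Figure D5:**
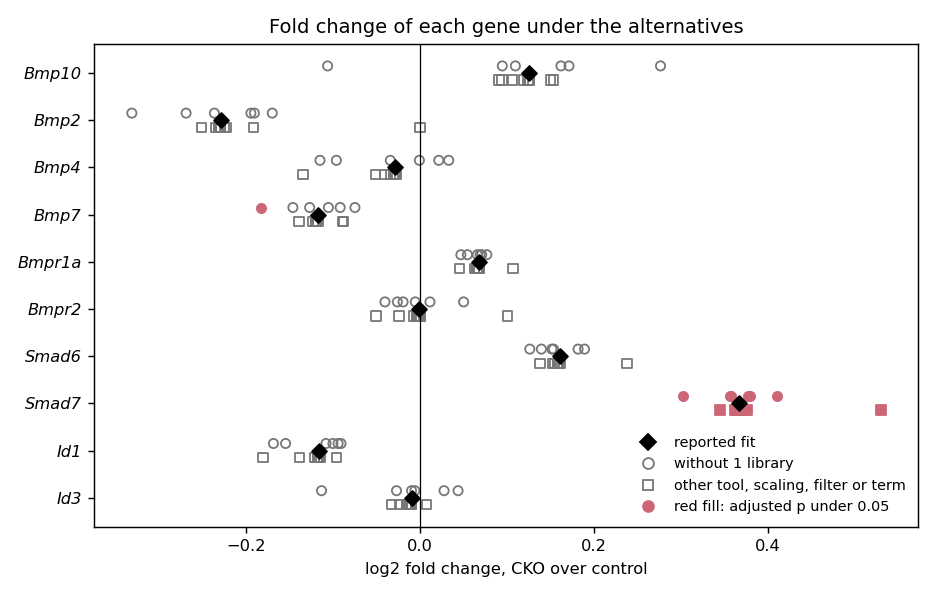
Log2 fold change (horizontal axis) of each of the 10 genes in the reported fit (diamonds), without 1 library (circles) and under other tools, scalings, filters or terms (squares), filled red where called. Smad7 is called throughout (0.30 to 0.53), Bmp7 without 1 library, and the other 8 genes in none.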

How the data were processed

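The authors deposited 1 table of raw counts by gene symbol for 6 libraries, named so in the labels, and its build is mm10, per the submitters' processing notes. Not given in the sources used here are the aligner, counting program, annotation and strand setting. Altered symbols (2017) were restored, and positions and exon lengths taken, from GENCODE M21.

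Groups and replicate numbers came from the titles. Genes were filtered with filterByExpr (minimum count 10, total 15), which left 17557 genes and removed 0.0756% of counts, scaled with TMM and tested with edgeR 4.0.16 in R 4.3.3 (glmQLFit with legacy=FALSE, robust, and glmQLFTest, two-sided) with group as the only term. P-values were adjusted by Benjamini-Hochberg over the 17557 genes, with calls at an adjusted p under 0.05. SE is the log2 fold change over the square root of F, and intervals are 95% t intervals from it. RPKM is CPM per kilobase of merged exons. DESeq2 1.42.0 and limma-voom (limma 3.58.1) were alternatives, as were the log2 share of a ribosomal RNA row (CT010467.1) and the log2 CPM of the Y-linked gene Ddx3y as covariates. The pipeline was tested on simulated counts, with 50 genes changed at each size. It recovered 12% of 1.2-fold, 64% of 1.5-fold, 80% of 2-fold and 100% of 4-fold changes, so small changes were mostly missed. Of its 139 calls, 7.91% were false, and no call was made where no gene was changed. Other alternatives are given in the closing section.

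The 10 genes, the lists and the tests were chosen with earlier results of these data known. The rule for named genes took the 10 genes, called genes of the lists, the gene with the smallest adjusted p outside the 10 in each list by role, and the 3 genes nearest to the most variable of the 10. Tgfb3, Tgfbr2 and the values of other list genes were named after their values were seen, as were the ratios. One result of a list is not reported here. Replicate libraries differed by more than sampling noise (chi-square per degree of freedom 9.83 to 18.7).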

Additional observations from a re-analysis of the deposited data

How the results depend on the processing

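Smad7 kept its direction and its call under all 16 alternatives. Of the values of the 10 genes under these alternatives, 148 kept direction and side of the threshold, 1 gained a call and 11 changed sign, none of them called. The sign changed for Bmp10 without CKO replicate 2 (-0.11), for Bmp4 without CKO replicate 3 (0.0331) and control replicate 3 (0.0216), and for Id3 without CKO replicate 2 (0.0438), without CKO replicate 3 (0.0277) and with the Y-linked covariate (0.00794). It changed for Bmp2 with the ribosomal RNA covariate (1.79e-06) and for Bmpr2 with that covariate (0.101), in limma-voom (0.00070), without CKO replicate 1 (0.0115) and without control replicate 3 (0.0502). The causes were not tested.

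Left out in turn, libraries gave log2 fold changes of -0.106 to 0.277 for Bmp10, -0.115 to 0.0331 for Bmp4, -0.183 to -0.0749 for Bmp7, -0.0403 to 0.0502 for Bmpr2 and -0.113 to 0.0438 for Id3. They gave 1 to 2 called genes of the 10, 1 to 10 of the wider list and 301 to 1552 of all tested genes, the highest of each without CKO replicate 2. Counts of all called genes were 1251 with no filter, 56 with the ribosomal RNA covariate and 332 with the Y-linked covariate, and those of the wider list 5, 1 and 1. With the replicate block, Smad7 stayed at 0.37 (edgeR adjusted p = 0.0051), and no call among the 10 genes changed. Deviations of same-numbered libraries correlated at -0.0022, 0.0167 and 0.0014, so no pairing by number was seen. Such values do not show that the samples are unpaired, and no label states it. The legacy edgeR fit was added after the data were seen. With 3 libraries a group, the interval of Bmp10 leaves changes of either sign unresolved.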
